A study of Homo sapiens with 10 samples.

Results

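The genes described here are 9 human genes whose products bundle actin filaments, coat them, move them or tie them to membranes, adhesions and other filaments: MACF1, DST, PALLD, MYLK, CALD1, TPM1, VCL, ACTN1 and TLN1. They are 9 of the 19974 protein-coding genes on chromosomes 1 to 22 and X. They were chosen by their Pol II bases and roles, with earlier results of these same peak lists known: 4 of them (MACF1, DST, PALLD and MYLK) rank among the 10 genes with the most bases in Pol II peaks. The amount of Pol II in them is therefore a description and supports nothing.

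CUT&Tag, which brings the transposase Tn5 (made in house here) to an antibody's target so that it tags the DNA around it, was carried out in wild-type hTERT-RPE1, an established line of human retinal pigment epithelium that telomerase has made immortal, grown in its supplier's recommended medium. There were 6 libraries for RNA polymerase II with phosphate on serine 5 of the tail repeats (called Pol II) and 4 for H3K4me1, histone H3 carrying 1 methyl group on lysine 4. The authors' lists merge 3 Pol II libraries or 2 H3K4me1 libraries each, so each target has 2 lists, called list 1 and list 2 for R1 and R2. What R and T stand for is not spelled out, nor whether the lists come from separate cultures, there is no treated or control group, and every difference between list 1 and list 2 may be technical.

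Serine 5 of the polymerase tail is phosphorylated around the start of transcription, and H3K4me1 is known from enhancers and from the borders of promoters. Actin filaments in adherent cells are joined into bundles by crosslinkers such as alpha-actinin, are wrapped by tropomyosin and caldesmon, are pulled by myosin II, and end on integrin adhesions through talin and vinculin. The very large proteins MACF1 and dystonin join actin to microtubules and intermediate filaments. Many of these genes are long and are known to be read from several promoters, and several are targets of serum response factor, which binds the CArG box, or of the TEAD factors, the DNA-binding partners of YAP.

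A start is a RefSeq transcription start in the table used here, which holds 21 starts for the 9 genes (4 for CALD1 and ACTN1, 3 for MACF1, DST and PALLD, 1 for each of the others), numbered from the 5′ end of the gene. A start, or an outer end of a gene model, was counted as bearing a target when both lists had a peak within 1 kb. The 7 windows printed next run from 250 bases before a start to 50 bases after it on the gene's strand and are from RefSeq, build GRCh38.p14. They set starts with Pol II (CALD1 3, MACF1 2, VCL 1, PALLD 3, ACTN1 3) beside a start without it (CALD1 1) and beside the inner start of MYLK. The choice does not follow Pol II strength. CALD1 start 4 (fold enrichment 6.32 in list 1 and 4.19 in list 2) and DST start 3 (5.42 and 4.78) are not printed. Both had higher Pol II folds than ACTN1 start 3 (4.69 and 2.96). Every printed window holds a capital match, and the window of DST start 3 holds none. Capitals mark matches on either strand to the CArG box, to the TEAD motif GGAATG, to the AP-1 motif TGANTCA and to the TATA box TATAAA.
CALD1 start 1, chr7:134711249-134711548, plus strand: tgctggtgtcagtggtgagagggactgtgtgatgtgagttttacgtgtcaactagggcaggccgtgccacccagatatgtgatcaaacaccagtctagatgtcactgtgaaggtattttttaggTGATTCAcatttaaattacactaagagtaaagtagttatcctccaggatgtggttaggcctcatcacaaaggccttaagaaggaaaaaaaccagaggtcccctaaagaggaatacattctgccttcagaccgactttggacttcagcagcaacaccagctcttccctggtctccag
CALD1 start 3, chr7:134779384-134779683, plus strand: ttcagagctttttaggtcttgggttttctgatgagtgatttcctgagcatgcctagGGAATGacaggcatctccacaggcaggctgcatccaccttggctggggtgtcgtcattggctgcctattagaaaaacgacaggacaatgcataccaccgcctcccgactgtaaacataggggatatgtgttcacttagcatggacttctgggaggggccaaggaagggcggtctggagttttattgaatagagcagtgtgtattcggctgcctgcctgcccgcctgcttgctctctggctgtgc
MACF1 start 2, chr1:39204445-39204744, plus strand: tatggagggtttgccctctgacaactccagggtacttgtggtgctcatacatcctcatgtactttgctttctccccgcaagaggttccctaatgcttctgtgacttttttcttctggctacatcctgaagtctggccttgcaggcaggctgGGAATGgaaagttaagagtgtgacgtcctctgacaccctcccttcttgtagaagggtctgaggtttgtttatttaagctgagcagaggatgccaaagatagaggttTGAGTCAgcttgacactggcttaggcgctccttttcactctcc
PALLD start 3, chr4:168831845-168832144, plus strand: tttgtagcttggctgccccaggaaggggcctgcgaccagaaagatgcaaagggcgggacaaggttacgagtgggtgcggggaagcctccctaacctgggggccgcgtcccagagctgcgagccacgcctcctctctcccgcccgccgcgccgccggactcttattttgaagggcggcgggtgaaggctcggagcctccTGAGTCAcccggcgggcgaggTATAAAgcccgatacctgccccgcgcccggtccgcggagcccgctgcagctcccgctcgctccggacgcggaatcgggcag
VCL start 1, chr10:73997866-73998165, plus strand: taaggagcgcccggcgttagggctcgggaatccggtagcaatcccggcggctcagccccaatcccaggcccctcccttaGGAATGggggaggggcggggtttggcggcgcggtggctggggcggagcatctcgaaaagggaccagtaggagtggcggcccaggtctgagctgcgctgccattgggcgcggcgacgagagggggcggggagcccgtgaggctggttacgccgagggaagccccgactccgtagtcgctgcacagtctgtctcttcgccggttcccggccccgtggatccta
ACTN1 start 3, chr14:68977517-68977816, minus strand: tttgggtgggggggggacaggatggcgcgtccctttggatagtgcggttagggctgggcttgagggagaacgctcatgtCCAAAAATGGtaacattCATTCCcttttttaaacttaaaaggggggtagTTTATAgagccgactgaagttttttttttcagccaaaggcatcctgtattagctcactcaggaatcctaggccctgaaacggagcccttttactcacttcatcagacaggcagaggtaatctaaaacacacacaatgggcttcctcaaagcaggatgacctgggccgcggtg
MYLK start 1, chr3:123620499-123620798, minus strand: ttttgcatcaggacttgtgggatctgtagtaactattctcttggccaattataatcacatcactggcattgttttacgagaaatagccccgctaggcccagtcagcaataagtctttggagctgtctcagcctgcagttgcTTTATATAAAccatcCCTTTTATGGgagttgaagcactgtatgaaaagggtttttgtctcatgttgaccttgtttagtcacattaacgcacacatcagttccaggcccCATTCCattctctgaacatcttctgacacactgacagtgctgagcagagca

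The CArG box stood in 2 of the 21 member windows, those of MYLK start 1 and ACTN1 start 3 printed above, and in 1.299% of all 34789 windows in the table. GGAATG stood in 8 of 21, against 14.1% of all windows, TGANTCA in 4 of 21, against 7.69%, and TATAAA in 5 of 21, against 11.6%. The GC box GGGCGG, not put in capitals, stood in 10 of 21, against 44.9%. CArG and AP-1 matches can lie on both strands at once and were counted once per place, and in the MYLK window a TATAAA match on one strand overlaps a match on the other. The match to the CArG box began 94 bases before the MYLK start and 171 bases before ACTN1 start 3, where a match to GGAATG followed from 154 bases before it. In VCL, GGAATG began 171 bases before the start, in CALD1 start 3 it began 194 bases before, and in MACF1 start 2 it began 99 bases before. GGAATG stood in 5 of the 13 windows of starts with Pol II and in 3 of the 8 without. Those 3 were MYLK start 1, CALD1 start 2 and DST start 1. For the CArG box it was 1 of 13 and 1 of 8, for TGANTCA 2 and 2, and for TATAAA 3 and 2. The split by Pol II was not computed over all windows. These matches are letters in a window and show no binding.

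Pol II lay at an outer end of the gene model in 4 of the 9 genes, MYLK, VCL, ACTN1 and TLN1, and all 4 had it at the 5′ end. Over all protein-coding genes 39.4% had Pol II at an outer end. H3K4me1 lay at an outer end in 8 of 9 genes, all but MACF1, against 63.8% of protein-coding genes, and in 4 of 9 when peaks at or below the median -log10 q of their list were left out. With a window of 500 bp it was 7 of 9. In ACTN1 the peaks of the 2 lists at the 5′ end were separate ones. DST, PALLD, CALD1 and TPM1 had H3K4me1 at the 5′ end and no Pol II there in both lists. Of the 21 listed starts, 13 bore Pol II, against 39.1% of the 22132 RefSeq starts of protein-coding genes, and 10 of the 14 starts lying more than 1 kb inside the model did, against 3 of the 7 within 1 kb of the 5′ end. The 5 genes without Pol II at the 5′ end all had it at an inner start. No share over all protein-coding genes was computed for this split. Inner starts lie in the body, and the genes were chosen for Pol II bases, which bears on both counts. In all, 8 of 9 genes had Pol II at 1 or more listed starts, against 42.2% of the 15812 protein-coding genes with a listed start and 50.9% of the 4036 with more than 1. The exception was MYLK, whose Pol II lay at the outer 5′ end, which is not in the table of starts. H3K4me1 lay at 18 of 21 starts (61.3% over all starts), at each of the 13 with Pol II and at 5 without, and the other 3 starts had neither. Neighbouring starts share peaks: the same Pol II peak was the strongest within 1 kb of ACTN1 starts 2 and 3.

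**Figure D1:**
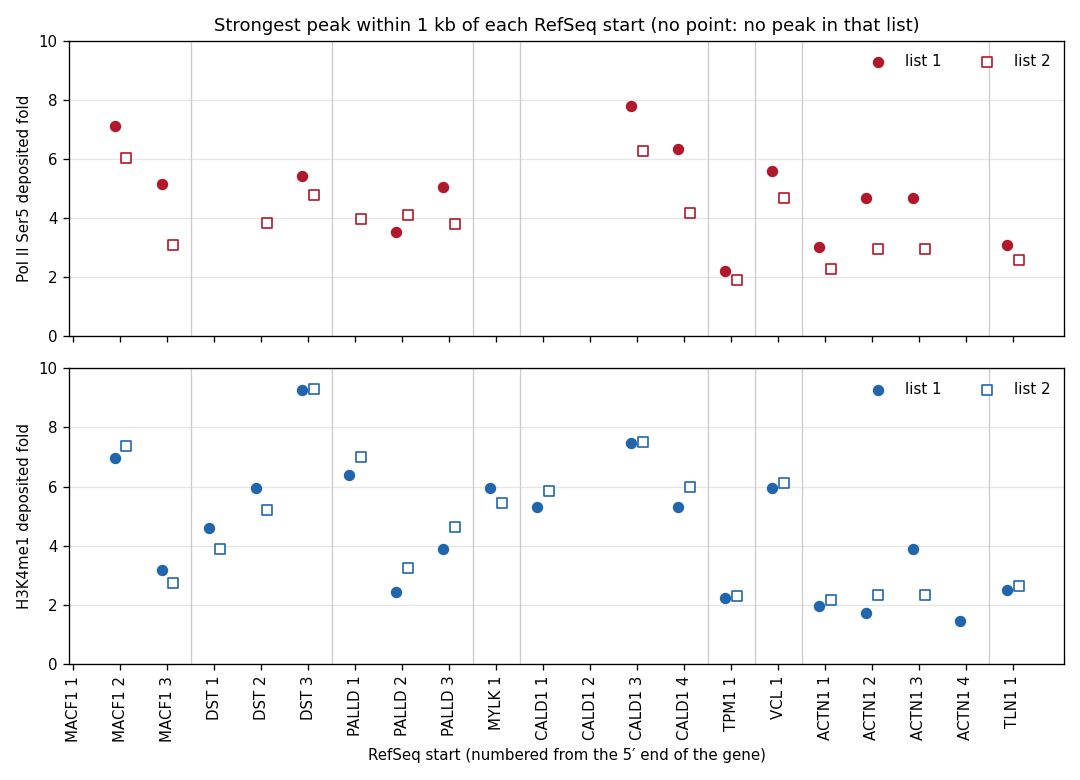
Deposited fold enrichment of the strongest peak within 1 kb of each of the 21 RefSeq starts (horizontal axis), for Pol II Ser5 (top) and H3K4me1 (bottom), with list 1 as filled circles and list 2 as open squares. The highest Pol II values are at CALD1 start 3 (7.78 and 6.26) and MACF1 start 2 (7.11 and 6.03), and a start without a point in a list had no peak there.

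The linkers of actin to microtubules and intermediate filaments came first by Pol II bases. MACF1, microtubule-actin crosslinking factor, spans 402.972 kb of the plus strand (chr1:39084167-39487138). At its outer start neither target had a peak in either list. At start 2, which lies 120.528 kb inside the gene, the deposited fold enrichment of the strongest peak was 7.11 in list 1 and 6.03 in list 2 for Pol II. The H3K4me1 fold there was 6.96 and 7.36. Start 3, 324.906 kb from the 5′ end, had a Pol II fold of 5.14 and 3.08 and an H3K4me1 fold of 3.19 and 2.72. Both lists thus placed Pol II at the 2 inner starts and none at the outer one.

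The body of MACF1 held 16463 Pol II bases in list 1, 22400 in list 2 and 12234 in both, 3.04% of the gene. They formed 24 regions, a region being a merged interval with a peak of both lists, and 22 of the 24 overlapped an H3K4me1 region. The strongest by the mean deposited -log10 q lay at chr1:39398354-39399071, 315 kb from the 5′ end, with folds of 8.66 and 7.97. The next, at chr1:39110485-39111139, had folds of 7.93 and 5.43, and the third, chr1:39191772-39192774, had 7.16 and 5.79. With each gene split into 10 equal parts from 5′ to 3′, Pol II regions crowded into the first 4 parts, which were covered in both lists at 4.13%, 6.56%, 8.56% and 6.04%, and parts 5 to 7 held none. A stretch of 161 kb, 40.0% of the gene, had no Pol II region and still held 11 H3K4me1 regions in whole or in part. Of these, chr1:39229597-39231425 and chr1:39391777-39392688 crossed its edges and overlapped the Pol II regions beyond. Parts 1 to 5 held 83.3% of the gene's Pol II bases and 81.5% of its H3K4me1 bases.

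DST encodes dystonin, a plakin like MACF1 that ties intermediate filaments, actin and microtubules to one another and to hemidesmosomes. It spans 496.835 kb of the minus strand (chr6:56457996-56954830). Its outer start had no Pol II peak in either list and an H3K4me1 fold of 4.602 and 3.89, with both summits 571 and 570 bp upstream of it, 294 and 293 bp from the end of the neighbouring gene BEND6. Start 2 had a Pol II peak in list 2 alone, with a fold of 3.85, and start 3, 311.941 kb inside, had folds of 5.42 and 4.78. The H3K4me1 fold at start 3 was 9.27 in list 1 and 9.30 in list 2, the highest at any of the 21 starts in both lists. Of the 3 starts of DST, the innermost bore Pol II in both lists.

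DST held 17504 and 19265 Pol II bases in lists 1 and 2 and 12073 in both, 2.43% of the gene. The 26 Pol II regions were spread along it, with bases in all 10 parts and 59.3% of them in parts 1 to 5. The strongest region was chr6:56938625-56939157, 16.1 kb from the 5′ end, with Pol II folds of 13.7 and 12.8 and H3K4me1 folds of 14.8 and 12.1. It overlapped the strongest H3K4me1 region of the gene. The next 2 lay at chr6:56714401-56715613 (folds 9.0 and 7.54) and chr6:56652173-56653516 (12.3 and 7.70). None of these 3 regions lay within 1 kb of a listed start, and all 3 overlapped H3K4me1.

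PALLD encodes palladin, a scaffold of stress fibres and focal adhesions that binds alpha-actinin. It spans 431.390 kb of the plus strand (chr4:168497052-168928441). Its outer start had a Pol II peak in list 2 alone (fold 3.97) and H3K4me1 in both (6.39 and 6.99). Start 2 had Pol II folds of 3.52 and 4.10, and start 3, 335.043 kb inside and printed above with its TATAAA and TGANTCA matches, had 5.04 and 3.80. Those 2 inner starts bore Pol II in both lists, as in MACF1. Start 3 lies within 1 kb of the end of an overlapping noncoding gene, LOC124900809, and CUT&Tag reads carry no strand.

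In the body of PALLD, list 1 had 17431 Pol II bases, list 2 had 17545 and both had 11020, 2.55% of the gene. All 20 of its Pol II regions overlapped H3K4me1. Region chr4:168694723-168695434, 198 kb from the 5′ end, had Pol II folds of 14.9 in list 1, the highest in the 9 bodies, and 11.5 in list 2, where the strongest DST region was higher at 12.8. Its H3K4me1 folds were 9.37 and 9.79. Next came chr4:168796365-168797543, with Pol II folds of 8.43 and 8.52, and chr4:168618666-168619658, with 8.09 and 6.43. The gene had 61 H3K4me1 regions, more than any other of the 9, and 47756 H3K4me1 bases in both lists, 11.1% of its length.

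The crosslinker and adhesion linker genes ACTN1, VCL and TLN1 differed from these in having Pol II at the 5′ end. ACTN1 encodes alpha-actinin 1, which crosslinks filaments in stress fibres, and spans 105.175 kb of the minus strand (chr14:68874128-68979302). At its outer start Pol II had folds of 3.03 and 2.30, with the summit 15 bp upstream in both. At start 3, 1.736 kb inside, it was 4.69 and 2.96, with the summit 213 bp upstream in both lists, on the far side of the CArG and GGAATG matches in the window printed above. Start 4, 41.351 kb inside, had no Pol II peak in either list. A divergent noncoding gene, ACTN1-DT, lies 379 bp from the outer start, and its near end was 365 bp from both Pol II summits. H3K4me1 at the outer start had folds of 1.97 and 2.15, from separate peaks with summits 1048 bp upstream in list 1 and 208 bp in list 2. These peaks formed no region of both lists.

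ACTN1 held 7141 Pol II bases in list 1, 12086 in list 2 and 7032 in both, 6.69% of the gene, in 15 regions. Parts 1 and 2 were covered by both Pol II lists at 17.7% and 15.1%, and parts 1 to 5 held 76.7% of the gene's Pol II bases. By -log10 q the strongest region was the one at start 3 (47.9 and 39.9), followed by chr14:68884160-68884984, 94.8 kb from the 5′ end, with folds of 10.3 and 6.71, and chr14:68939920-68940528, with 5.53 and 3.82. The second of these overlaps an H3K4me1 region with folds of 6.61 and 7.41. Each gene's widest H3K4me1 region spanned from 1691 bp (TPM1) to 3513 bp, and the latter, ACTN1's, at chr14:68892357-68895869 lay in part 9 of 10, where H3K4me1 covered 29.2% of the bases.

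VCL encodes vinculin, which joins talin and cadherin complexes to actin, and spans 123.248 kb of the plus strand (chr10:73998116-74121363). The strongest Pol II peak within 1 kb of its start had a fold of 5.59 in list 1, with the summit 87 bp upstream, and of 4.69 in list 2, with the summit 1367 bp downstream. H3K4me1 folds there were 5.95 and 6.11, with summits 250 and 254 bp upstream. VCL held 7121 Pol II bases in list 1, 14211 in list 2 and 5770 in both, 4.68% of the gene. Besides the region just inside the start (chr10:73998956-74000046, folds 6.77 and 4.69), the named regions were chr10:74055793-74057199 (11.1 and 6.15) and chr10:74078094-74079154 (11.1 and 6.52), 58.4 and 80.2 kb inside, both on H3K4me1. All 11 Pol II regions of VCL had the higher fold in list 1, although list 2 covered more bases. VCL lies on the long arm of chromosome 10, part of which hTERT-RPE1 is known to carry in an extra copy, and whether copy number moves the peaks was not tested.

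TLN1 encodes talin 1, which activates integrins and links them to actin, and spans 35.248 kb of the minus strand (chr9:35696948-35732195). At its start the lists gave Pol II folds of 3.10 and 2.59. The summits lay 318 and 367 bp upstream of TLN1 and 153 and 104 bp from the near end of CREB3, a transcription factor gene that lies 470 bp away, so they were nearer to CREB3 than to TLN1. TLN1 also had Pol II at its 3′ end, with folds of 3.38 and 2.96. Its body held 3250 bases in list 1, 5310 in list 2 and 2285 in both, 6.48% of the gene, in 7 regions of which none lay within 1 kb of a listed start. The strongest was chr9:35727902-35728659, 3.77 kb inside, with folds of 3.97 and 3.89. The next were chr9:35729721-35730347, with 3.05 and 2.22, and chr9:35696530-35697702, which is the region at the 3′ end. A stretch of 15.3 kb, 43.5% of the gene, had no Pol II region.

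**Figure D2:**
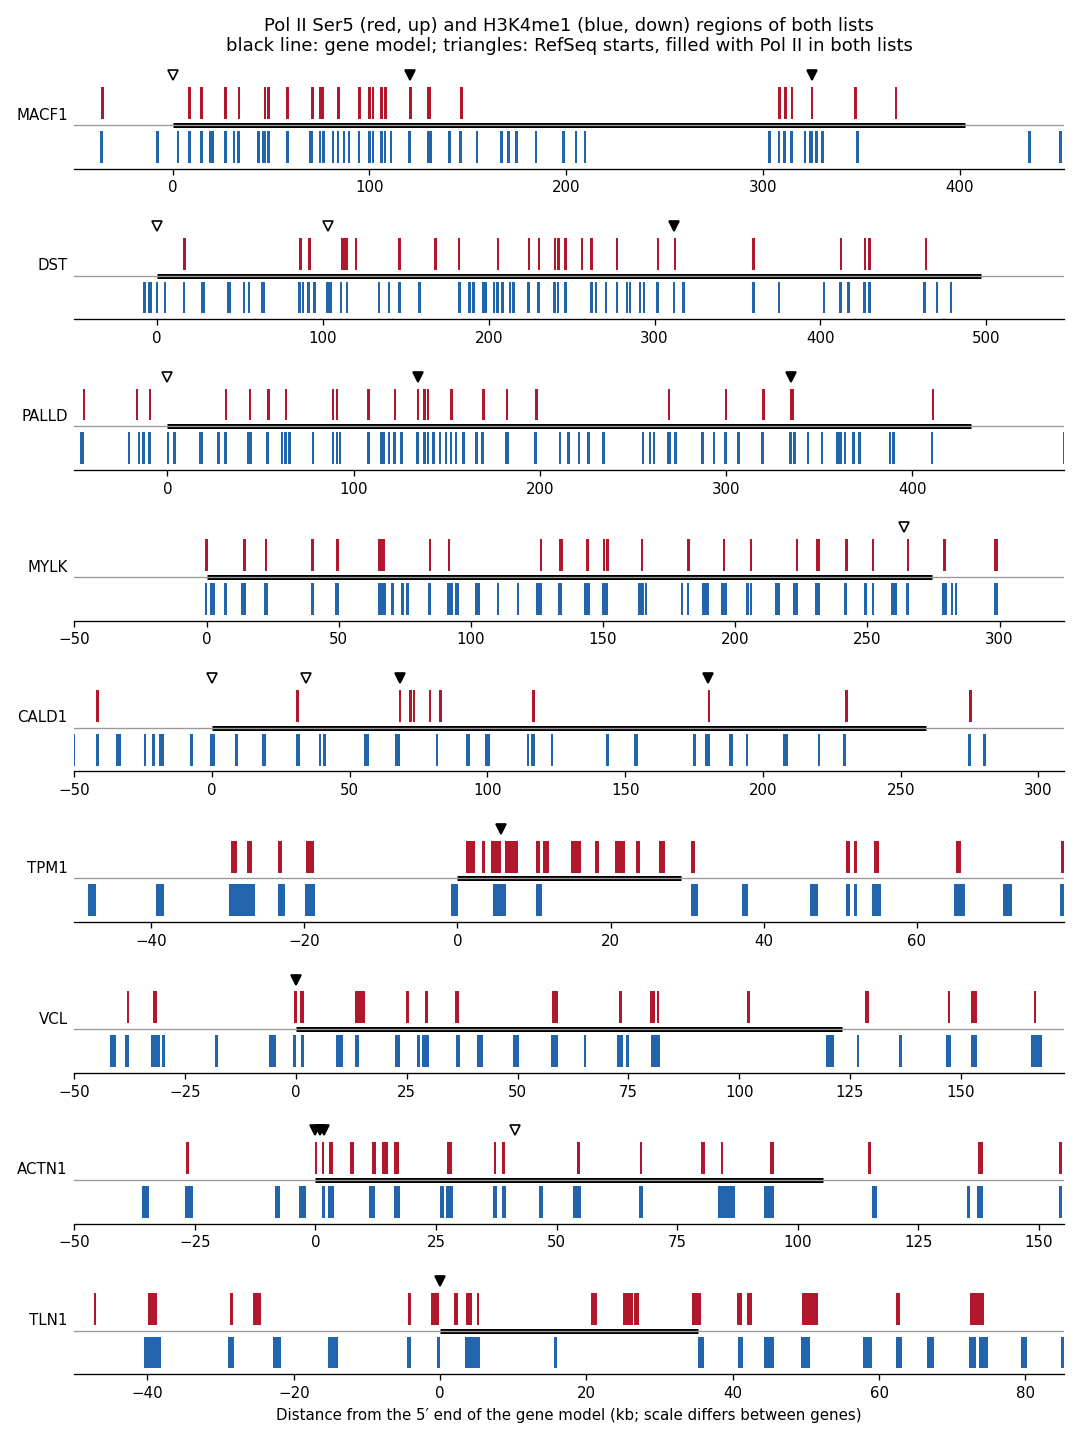
Regions with peaks of both lists along each gene and 50 kb to either side, with Pol II Ser5 as red bars above and H3K4me1 as blue bars below the gene model (black line). The horizontal axis is distance from the 5′ end in kb on a scale of its own for each gene, narrow regions are drawn at a minimum width, and triangles are RefSeq starts, filled where both Pol II lists have a peak. MACF1 shows the 161 kb stretch without Pol II, and the filled triangles of MACF1, DST, PALLD and CALD1 all lie inside the gene.

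Among the genes for regulators of the myosin motor, MYLK encodes myosin light chain kinase, which switches on smooth muscle and nonmuscle myosin II, and spans 274.284 kb of the minus strand (chr3:123610049-123884332). At its outer 5′ end Pol II had folds of 5.17 and 4.69, with summits 165 and 259 bp upstream, 679 and 585 bp from the end of CCDC14. H3K4me1 folds at that end were 5.08 and 5.64. The 1 start listed for MYLK lies 263.784 kb inside, in the 3′ part of the gene, from which the short smooth muscle protein telokin is known to be read. Its window, printed above, holds a CArG box and TATAAA matches, and no Pol II peak of either list lay within 1 kb. The nearest Pol II region, chr3:123618909-123619404, with folds of 4.57 and 4.13, had its near edge 1144 bp from the start, just beyond that window. H3K4me1 peaks of both lists reached within 1 kb of the start, with folds of 5.95 and 5.45, but their summits lay 1301 and 1625 bp downstream. They belong to region chr3:123618447-123619702, which contains that Pol II region.

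MYLK held 12597 Pol II bases in list 1, 17535 in list 2 and 10062 in both, 3.67% of the gene. Pol II was spread along the gene, with bases in every part and 45.6% of them in parts 1 to 5, the lowest such share of the 9 genes. All 22 regions overlapped H3K4me1, and 99.0% of the Pol II bases were also in H3K4me1 peaks of both lists. The strongest region was chr3:123816755-123819303, 65.3 kb inside, with folds of 9.09 and 5.86, and it lay within the widest H3K4me1 region of the gene, which spans 3051 bp. It was followed by chr3:123733994-123734446, with 7.61 and 6.28, and chr3:123632247-123632688, with 7.74 and 5.36. H3K4me1 covered 51765 bases in list 1, 45899 in list 2 and 41915 in both, 15.3% of the gene. That was the highest share of all 1396 protein-coding genes of 200 kb or more, of which the median was 2.52% and the 95th percentile 9.19%.

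CALD1 encodes caldesmon, which binds actin and tropomyosin and restrains myosin, and spans 259.231 kb of the plus strand (chr7:134711499-134970729). Starts 1 and 2 had no Pol II peak in either list. Start 3, 68.135 kb inside, had the highest Pol II folds of any start in the 9 genes, 7.78 and 6.26, with a -log10 q of 65.2 and 79.3 and summits 6 and 33 bp upstream. Start 4, 179.959 kb inside, had 6.32 and 4.19. H3K4me1 lay at start 1 (5.31 and 5.84), start 3 (7.46 and 7.49) and start 4 (5.29 and 6.0) and not at start 2. Start 1 and start 3 thus both bore H3K4me1, and start 3 alone of the pair bore Pol II. A noncoding gene, LOC124901750, overlaps the first part of the body.

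Over its whole body, starts included, CALD1 held less Pol II than the other 4 genes of 200 kb or more: 5792 bases in list 1, 8957 in list 2 and 3663 in both, 1.41% of the gene, the lowest share of the 9. By -log10 q the region at start 3 was the strongest, followed by chr7:134827773-134828623, with folds of 6.89 and 4.57, and then by the region at start 4. Of its 9 Pol II regions 5 lay on H3K4me1, with folds of 4.63 to 7.78 in list 1 and 4.19 to 6.26 in list 2. The 4 off H3K4me1 had 2.43 to 2.80 and 1.91 to 2.33, so these few regions did not overlap in either list. In every other member with regions off H3K4me1 the 2 sets overlapped. The same comparison over all protein-coding bodies was not made.

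TPM1 encodes tropomyosin alpha-1, which lies along the actin filament and controls the access of myosin and other proteins to it. It is the shortest of the 9 genes, 29.169 kb on the plus strand (chr15:63042747-63071915), and its 1 listed start lies 5.742 kb inside the model. Within 1 kb of that start Pol II had folds of 2.22 and 1.90, the lowest of the 13 starts with Pol II. H3K4me1 folds there were 2.25 and 2.29. An antisense noncoding gene, TPM1-AS, overlaps this part of the body, and the peaks cannot be told apart by strand. At the outer 5′ end H3K4me1 had folds of 6.80 and 5.09, and Pol II a peak in list 2 alone, with a fold of 1.41. The first Pol II region of both lists began 1.18 kb inside, just beyond the 1 kb window.

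TPM1 had Pol II in 9 of its 10 parts: 6461 bases in list 1, 11256 in list 2 and 6114 in both, which is 22.2%, 38.6% and 20.96% of the gene. Its 11 Pol II regions came to 37.7 per 100 kb, against 3.47 to 19.9 in the other 8 genes. The fold of each was low, 1.51 to 2.46 in list 1 and 1.52 to 2.18 in list 2. By -log10 q the strongest were chr15:63043926-63045066 (2.46 and 2.18), chr15:63047133-63048488 (2.22 and 1.90) and chr15:63048949-63050666 (1.74 and 1.74). Its median peak fold was 1.76 in list 1 and 1.70 in list 2, and 0.0871% and 0.271% of all Pol II peaks had a lower one. The deposited -log10 q of the same peaks was not low, with a median of 5.84 and 9.70 against 5.45 and 5.46 over each whole list. H3K4me1 covered 2181, 2046 and 1002 bases in list 1, list 2 and both, 3.44% of the gene, and 3 of the 11 Pol II regions overlapped an H3K4me1 region. TPM1 thus held many low-fold Pol II peaks and little H3K4me1, where MYLK held H3K4me1 under nearly all of its Pol II.

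**Figure D3:**
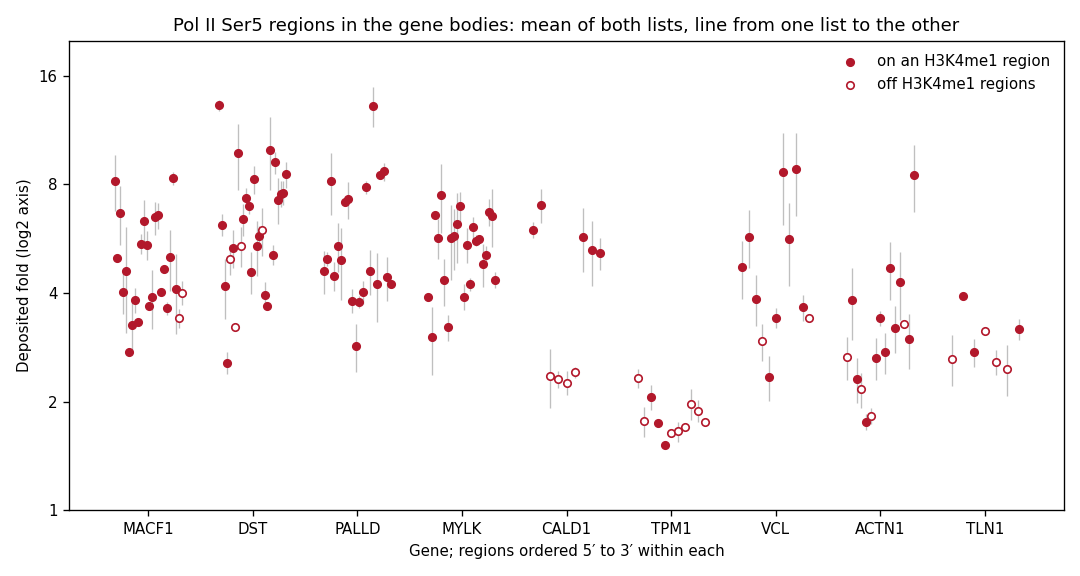
Deposited fold of every Pol II Ser5 region in the 9 gene bodies, on a log2 axis, ordered 5′ to 3′ within each gene on the horizontal axis. Points are the mean of both lists, vertical lines run from one list to the other, and filled points overlap an H3K4me1 region. The TPM1 regions reach at most 2.46, and the highest points are in DST and PALLD.

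Over the 9 genes, Pol II peaks of both lists covered 70253 bases, 3.26% of 2157552 bp, with 93760 bases in list 1 and 128565 in list 2. List 2 covered more than list 1 in 9 of 9 genes, while list 1 had the higher fold in 124 of 145 regions. Of the 220 Pol II peaks of list 1 in these bodies 71.4% overlapped a peak of list 2, and of the 206 of list 2 70.4% overlapped one of list 1, against 66.1% and 65.8% of all Pol II peaks. H3K4me1 covered 270812 bases in list 1, 264635 in list 2 and 217251 in both, 10.1% of the bodies. All 9 genes had Pol II bases of both lists in the body, against 49.3% of protein-coding genes and 70.8% of those of 200 kb or more, and all 9 had H3K4me1, against 73.6% and 90.1%. Since the genes were named for such bases, nothing is read from these counts. Within its length class (under 50 kb, 50 to 200 kb, or 200 kb or more), each gene's share of Pol II bases ranked at or above the 90th percentile. For H3K4me1 that held for 7 of 9, with TLN1 at the 69.7th and TPM1 at the 55.0th percentile.

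**Figure D4:**
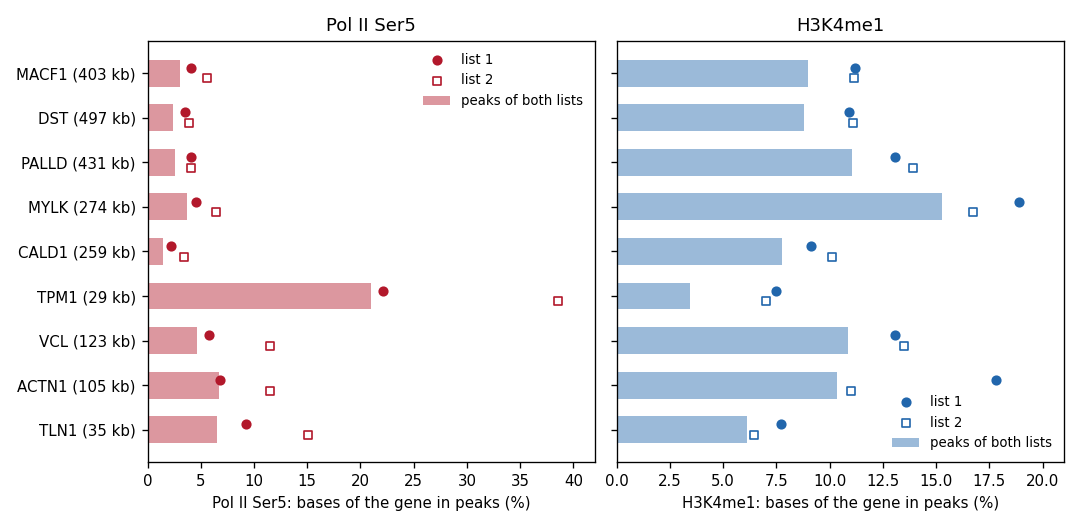
Percent of each gene's bases in Pol II Ser5 peaks (left) and H3K4me1 peaks (right), with list 1 as filled circles, list 2 as open squares and bases in peaks of both lists as bars, which start at 0. TPM1 has the highest Pol II share (20.96% in both lists) and the lowest H3K4me1 share (3.44%), and MYLK the highest H3K4me1 share (15.3%).

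Pol II regions away from any listed start and on H3K4me1 were the larger part in these genes, as they were over protein-coding genes. Of 145 Pol II regions in the bodies, 128 (88.3%) had no listed start within 1 kb, against 15073 of 21309 (70.7%) over protein-coding bodies. The table of starts covers 15812 of the 19974 protein-coding genes and lacks the outer start of MYLK. Some of the 128 lie within 1 kb of an end of an overlapping noncoding gene. Examples are chr3:123660876-123661485 at LOC124909421 and chr10:74033933-74034988 at LOC124902455. Of those 128, 102 (79.7%) overlapped an H3K4me1 region, against 85.7%. In all, 117 of 145 (80.7%) did, against 86.8% over protein-coding bodies. Regions on H3K4me1 had a median fold of 5.47 in list 1 and 4.41 in list 2, and the 28 regions off it 2.79 and 2.20. Without TPM1 the medians were 5.52 and 4.504 on it and 3.07 and 2.48 off it, for 114 and 20 regions. In TPM1 itself they were 1.74 and 1.74 on it and 1.87 and 1.71 off it, for 3 and 8 regions. The ranges overlapped: off H3K4me1 the fold reached 6.86 in list 1 and 5.06 in list 2, both in DST. From the other side, 114 of 258 H3K4me1 regions in the bodies (44.2%) overlapped Pol II, against 29.9% of 62102 over protein-coding bodies. The members were chosen for Pol II, which bears on that comparison.

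By bases, 74.1% of the Pol II in the 9 genes was also in H3K4me1 peaks of both lists, and 79.8% without TPM1, against 76.4% over all protein-coding bodies. The genes ranged widely. MYLK stood at 99.0%, MACF1 at 82.9%, PALLD at 82.7%, DST at 79.4%, ACTN1 at 75.8% and VCL at 71.9%. CALD1 at 54.4%, TLN1 at 39.4% and TPM1 at 13.8% were lower. Of the 2524 protein-coding genes with at least 1000 Pol II bases, 112 had a lower share than TPM1, and the median was 86.7%. By length, the pooled share of the members was below that of all genes in each class, though MYLK by itself was above its class. Under 50 kb, where TPM1 and TLN1 are the 2 members, the share was 20.8% against 63.7%. From 50 to 200 kb it was 74.0% against 80.0%, and at 200 kb or more 83.2% against 89.6%.

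Parts 1 to 5 of the gene held more Pol II bases than parts 6 to 10 in 8 of 9 genes, all but MYLK, against 71.0% of protein-coding genes of 10 kb or more. For H3K4me1 it was 9 of 9, against 67.9%, though MYLK was nearly even at 50.01%. The Pol II share in parts 1 to 5 was 77.8% in CALD1, 76.7% in ACTN1, 75.4% in VCL, 69.2% in PALLD, 64.4% in TPM1 and 61.4% in TLN1. In TPM1 and TLN1 all H3K4me1 bases of both lists lay in parts 1 to 5, while Pol II regions went on into parts 6 to 10.

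**Figure D5:**
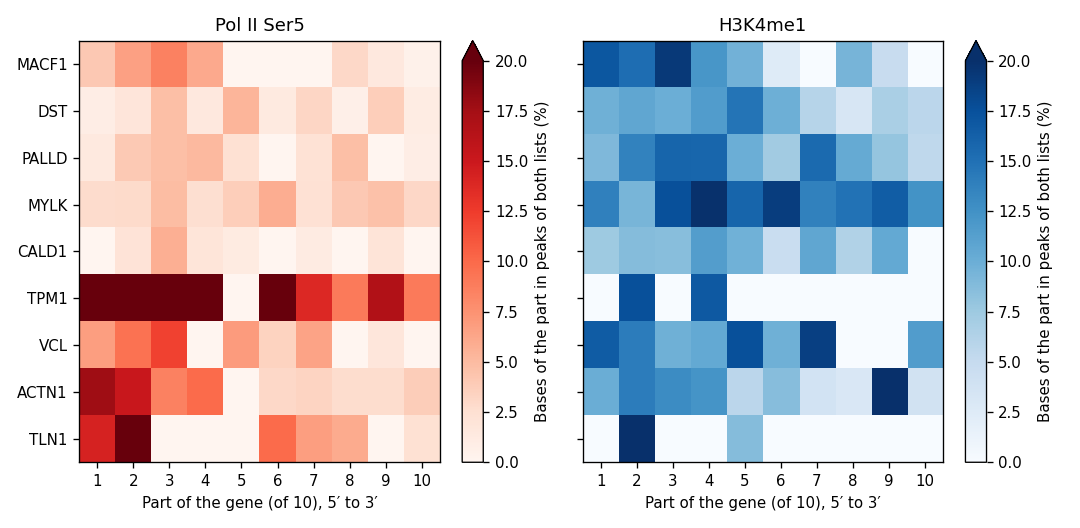
Percent of the bases of each of 10 equal parts of the gene, 5′ to 3′ on the horizontal axis, that lie in peaks of both lists, for Pol II Ser5 (left) and H3K4me1 (right). The colour scale ends at 20%, above which TPM1 reaches 47.0% for Pol II and TLN1 52.6% for H3K4me1, both in part 2. MACF1 has no Pol II in parts 5 to 7.

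In the 50 kb to either side, Pol II peaks of both lists covered 19743 bases, 2.19% of the flanks, against 3.26% of the bodies, and H3K4me1 64150 bases, 7.13% against 10.1%. Of the flank bases, 12250 for Pol II and 37253 for H3K4me1 were in or within 1 kb of another gene. The body had the larger Pol II share in 8 of 9 genes, all but TLN1, against 64.6% of protein-coding genes with Pol II in the body. For H3K4me1 it did in 6 of 9, against 53.9%. The members were chosen for Pol II bases, which bears on the Pol II count and on the Pol II shares of bodies and flanks. DST had no Pol II base of both lists in either flank. TLN1, in a gene-dense stretch, had 7.10% in its flanks, 6180 of 7097 bases in or near other genes, among them TPM2, which encodes another tropomyosin and bears Pol II at an end. TPM1 had 3.44% H3K4me1 in the body and 12.8% in the flanks.

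By the mean -log10 q, the strongest Pol II regions in and around VCL and TPM1 lay outside the genes. Around VCL it was chr10:73965791-73966673, 31.8 kb upstream of the start, with Pol II folds of 17.7 in list 1 and 13.7 in list 2 and an H3K4me1 region with 8.19 and 9.04. Around TPM1 it was chr15:63107810-63108506, 36.3 kb beyond the 3′ end, with 18.2 and 12.1. In list 1 both exceeded every Pol II region within the 9 bodies, where the highest fold was 14.9 in PALLD. In list 2 the region near VCL did, and that near TPM1 was below the 12.8 of DST. No annotated gene overlapped either region. Beside VCL and TPM1 themselves, the nearest annotated genes were C10orf55, 43494 bp from the summits near VCL, and LOC107984798, 5637 bp from those near TPM1. These distances do not say which gene a region acts on. For CALD1 the strongest flank region, chr7:134669542-134670285 (7.68 and 7.02), lay in BPGM, and for MYLK, chr3:123605219-123605693 (9.67 and 6.67) lay in the overlapping antisense gene MYLK-AS1. For PALLD, chr4:168486954-168487484 (8.79 and 5.35) lay in LOC107986198, for MACF1, chr1:39047767-39048184 (5.58 and 5.98) lay in LOC124904088, and for TLN1, chr9:35736177-35736637 (5.11 and 3.64) lay in CREB3. For ACTN1 the strongest was the region at the outer start, chr14:68979051-68979488. By fold, flank regions exceeded the body in MYLK and TLN1 too. The MYLK region had 9.67 and 6.67 against at most 9.09 and 6.62 in its body. For TLN1, chr9:35669284-35669887 had 6.79 and 4.21 against at most 3.97 and 3.89. In CALD1 this held in list 2 alone, with 7.02 against 6.26.

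The other genes of the actin machinery were taken from 4 lists, written with earlier results of these data known. Of 66 genes, 42 (63.6%) had Pol II at an outer end, against the 39.4% over protein-coding genes given above. Of 18 actin crosslinkers and spectrins 12 did, with ends of FLNA (filamin A) at folds of 3.53 and 2.20, SPTAN1 (alpha-II spectrin) at 3.25 and 4.49 and PLS1 (plastin 1) at 14.2 and 10.8. Of the 18, 5 had no Pol II at an end in either list. Among them were ACTN2, a muscle alpha-actinin, DMD (dystrophin) and LCP1, the plastin of blood cells. ACTN3, another alpha-actinin gene, had Pol II at an end, with folds of 5.47 and 3.10. Of 22 adhesion linkers 12 had Pol II at an end, among them ZYX (zyxin), VASP and PDLIM5. The kindlin genes FERMT1 and FERMT3 and the parvin gene PARVB had none in either list.

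Of 13 filament, tropomyosin and calponin genes 9 had Pol II at an end, including PFN1 (profilin), CNN2 and CNN3, whereas the ezrin relatives MSN and RDX had none in either list. MSN nevertheless held 4507 Pol II bases in its body, 2.94% of the gene, more in bases than CALD1. Of 13 genes for myosin II and its regulators 9 had Pol II at an end, such as MYH9 (nonmuscle myosin heavy chain), MYL6 and MYL12A (light chains). The other kinase genes MYLK2, MYLK3 and MYLK4 had none in either list, unlike MYLK. The median share of the gene in Pol II peaks of both lists was 2.09% over the 66 genes, with a range of 0 to 47.8%, and 3.67% over the 9 members.

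Markers of cell types, the tissue of this line among them, were read the same way. Over all protein-coding genes 39.4% had Pol II at an outer end and 63.8% had H3K4me1 there. Pol II lay at an outer end in 3 of 12 retinal pigment epithelium markers, PMEL, RDH5 and STRA6, and all 3 had H3K4me1 there too. H3K4me1 lay at an end in 7 of the 12, without Pol II of both lists in RLBP1, MITF, OTX2 and SERPINF1, and RPE65, BEST1, LRAT, TYR and TTR had neither target at an end in both lists. Pol II did in 3 of 8 smooth muscle markers (ACTA2, TAGLN and LMOD1, but not MYH11, CNN1 or MYOCD), 0 of 8 striated muscle, 4 of 6 mesenchymal, 2 of 4 epithelial and 0 of 4 blood markers.

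The median GC content of the 300-base window was 69.3% at the 13 member starts with Pol II and 46.2% at the 8 without, with ranges of 39.3% to 78.3% and 37.0% to 80.0%. Over all windows the medians were 64.3% with Pol II and 54.3% without. Exceptions ran both ways: DST start 1 had 80.0% GC and no Pol II in either list, and DST start 3 had 39.3% and Pol II in both. Among starts with Pol II, CALD1 start 4 had 46.0%, MACF1 start 2 had 49.0% and CALD1 start 3, the strongest, 52.7%. The GC box stood in 9 of the 13 windows with Pol II and in 1 of the 8 without, the window of DST start 1. This split was not computed over all windows, where those with Pol II were also richer in GC, so nothing particular to these genes is read from it.

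Every value here is a count of bases, peaks or genes in deposited lists, or a fold from them. Without read counts the depth and the counting error of each fold are unknown, and no test was run.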

How the data were processed

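For hTERT-RPE1, CUT&Tag peak lists of 2 targets, H3K4me1 and Pol II Ser5, were used, 2 per target, each of which the authors had made from the merged libraries of 1 R number (3 for Pol II, 2 for H3K4me1). The submitters' processing notes name BWA, SICER, deepTools and the build hg38 without roles or versions. For the lists, the calling program, its threshold and any control were not given in the sources used here. These deposited lists are in narrowPeak layout: column 7 holds the authors' ratio, the fold enrichment of a peak, column 9 the authors' -log10 q, and column 10 another deposited value, how far the summit lies from the first base of the peak. Depth is unknown, since read counts were not among the values used. Columns of samples that could not be mapped numbered 0.

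Gene models and starts were RefSeq's, GRCh38.p14, whose chromosomes 1 to 22 and X are those of hg38. All 9 members matched by symbol. Overlap meant 1 bp or more. Bases in both lists are the intersection of the lists, and a region is a merged interval holding a peak of both. Ends and starts were read within 1 kb and flanks over 50 kb. The 3 Pol II regions of a body with the highest mean -log10 q, the widest H3K4me1 region and the strongest flank region were taken for each member. The Pol II regions are all printed, the H3K4me1 regions as a range and where a result touches them, and further regions where a range needed them. Of each related list, up to 3 genes with the highest mean percentile of -log10 q at an end and up to 3 without Pol II there, in alphabetical order, were named. The motifs were named with the rule.

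Python 3.11.15, numpy 2.4.6, pandas 2.3.3 and matplotlib 3.10.9 were used, and the interval arithmetic was tested on simulated data. The members, gene lists and motifs were chosen with earlier results of these data known, so no test was run. Alternatives were each list alone, peaks above the median -log10 q of their list, other windows, flanks and overlaps, and R1 with R1 or R2 with R2 across targets.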

Additional observations from a re-analysis of the deposited data

How the results depend on the processing

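No paired analysis was possible because no result comes from a test. Pairing the lists by R number gave a share of Pol II bases on H3K4me1 of 75.6% for R1 with R1 and 65.1% for R2 with R2, against 74.1% for bases in both lists. Of 45 alternative values of 8 results, 24 stayed within the spread of the lists, or within 1.5 times for a count of genes, and 21 moved. With each list alone, members with Pol II at an end numbered 4 to 6 (list 2 added PALLD and TPM1), members with H3K4me1 at an end 8 in both, and related genes with Pol II 42 to 49. Pol II bases ran from 93760 to 128565 in the bodies and from 25895 to 34666 in the flanks, H3K4me1 bases from 264635 to 270812 and from 76164 to 87497, and the share on H3K4me1 from 65.1% to 75.6%. With peaks above the median -log10 q, H3K4me1 lay at an end of 4 members, not 8, and Pol II at an end of 27 related genes, not 42. H3K4me1 bases fell to 156703 in bodies and 43744 in flanks, and the share on H3K4me1 to 66.2%, and TPM1 kept 0 H3K4me1 bases. Counting whole merged intervals gave 112144 Pol II and 287927 H3K4me1 bases in bodies, and 30237 and 84077 in flanks. Flanks of 20 kb held 7445 and 25815 bases, and of 100 kb 42703 and 140293, totals over unlike lengths. The cause of the moves was not tested. Depth limits are unknown, since the lists hold no counts.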

Other observations

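For each of the 9 genes, the protein-coding gene of 10 kb or more most like it was found by the Euclidean distance in standardised log10 length, log10 Pol II bases and log10 H3K4me1 bases of both lists, over 14316 genes. ACTN1 was nearest to MYH9, the nonmuscle myosin heavy chain gene, which holds 7769 Pol II and 7820 H3K4me1 bases in 106688 bp. VCL was nearest to MET, the gene of the hepatocyte growth factor receptor, with 4927 and 12960 bases in 126182 bp. MYLK was nearest to BCAR3, which encodes an adaptor of the adhesion protein p130Cas, with 9270 and 35126 bases in 286411 bp. CALD1 was nearest to ST7, with 3590 and 19818 bases, and TLN1 to FUBP1, with 1811 and 1982. MACF1 and PALLD were both nearest to AOPEP, an aminopeptidase gene with 9534 and 39029 bases, and DST to ATXN1, with 8631 and 38788. TPM1 lay farthest from its nearest gene, TIPARP, at a distance of 0.218 against 0.0551 to 0.132 for the others. Likeness in these 3 numbers says nothing of where in the gene the peaks lie.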
